A study of Mus musculus with 4 samples.

Results

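The genes described here are 10 parts of the integrated stress response: the eIF2α kinase genes Eif2ak3 and Eif2ak4, the transcription factor genes Atf4, Atf5 and Ddit3, and the effector genes Asns, Chac1, Trib3, Sesn2 and Ppp1r15a. They were chosen by symbol with earlier results of these data known, and all 10 were found among the 23259 symbols with a value. RNA had been sequenced from macrophages grown out of the bone marrow of C57BL/6 mice aged 7 weeks and kept for 24 h with IL-4, a T helper cytokine under which macrophages take the alternatively activated state. The label wild type has 2 libraries and the label Sema6D-/- has 2, the latter marking loss of the transmembrane semaphorin gene on both alleles. All 4 libraries had IL-4, so the data hold no unstimulated level of these genes. The labels do not say how the allele was made or whether 2 libraries with the same label are 2 mice, 2 cultures or 1 culture prepared again; the p-values therefore rest on a spread that may be technical. The titles carry the letters K (wild type by genotype) and W (Sema6D-/- by genotype). Directions follow the genotype field, not the titles, and would all reverse if the genotypes had been exchanged.

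In the integrated stress response, kinases that sense different stresses phosphorylate eIF2α, a subunit of the factor that brings the initiator tRNA to the ribosome. PERK, encoded by Eif2ak3, senses misfolded protein in the endoplasmic reticulum (ER), and GCN2, encoded by Eif2ak4, senses uncharged tRNA when amino acids run short. Phosphorylated eIF2α lowers general protein synthesis but lets the mRNA of ATF4 be translated better through its upstream reading frames, so that ATF4 protein can rise without a rise of its mRNA. ATF4 then induces genes for amino acid supply, other transcription factors such as ATF5 and CHOP (encoded by Ddit3), and feedback regulators. RNA levels show neither kinase activity nor eIF2α phosphorylation, which were not analysed here.

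ATF4 pairs with C/EBP proteins on a composite site whose core can be written TGATGNAA. The 250 bases before each annotated start were searched for it on both strands, in windows that RefSeq gives on GRCm38.p6. All 10 genes had a window, 12 windows in all. Asns and Chac1 each held 1 match, and the other 8 genes held none of these letters in these windows. Of all 32851 windows, 3.45% held a match. A palindromic CRE site, TGACGTCA, which does not overlap these matches, was found before Ppp1r15a alone of the 10 (1.55% of all windows), and the ER stress element, CCAAT and CCACG with 9 bases between them, in none (0.113% of all windows). The 3 matches are shown because 2 of them lie before the members with the largest differences described below. Each is printed as 30 bases on the strand of the gene, with the match in capitals.
Asns, chr6:7693214-7693243, minus strand: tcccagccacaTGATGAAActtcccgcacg
Chac1, chr2:119351038-119351067, plus strand: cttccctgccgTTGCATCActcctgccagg
Ppp1r15a, chr7:45526269-45526298, minus strand: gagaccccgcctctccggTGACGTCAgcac
The Asns match starts 23 bases before the RefSeq start and lies in an exon of Asns in GENCODE, whose gene begins further upstream. The Chac1 match is the reverse complement of the search letters and starts 193 bases before the start, and that of Ppp1r15a starts 12 bases before it. A match describes these letters only and does not show that a factor binds there.

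Values are in FPKM, fragment counts scaled by transcript length and library size, as the authors normalized them. Differences are Sema6D-/- minus wild type in log2(FPKM + 1), which understates the change of genes with low values. They were tested with limma over the 10115 genes whose 4 libraries averaged 1 FPKM or more, and a gene passed at a Benjamini-Hochberg adjusted p under 0.05. Depth, estimated from the step between the lowest values, was about 8280000 to 9450000 fragments for each library. Sema6d itself was at 0.166 and 0.389 FPKM in the wild type pair and 0.106 and 0.315 in the Sema6D-/- pair, too low to check the labels, and gene-level values do not show which exons were read. The macrophage genes Lyz2 and Cd68 were among the abundant genes (2445 to 3266 and 1193 to 1551 FPKM), and markers of lymphocytes summed to at most 1.91 FPKM. Neutrophil markers differed between the labels. Of 14 found, 12 were tested, 6 rose (5 of them with both means at 1 FPKM or more) and 2, Csf3r and Mmp9, fell, and their sum was 273 to 294 FPKM under wild type and 673 to 812 under Sema6D-/-. None of the 14 was listed at 0 in all libraries. Of 9 tested macrophage markers 1 rose and 3 fell (sum 5740 to 6019 against 5431 to 5440 FPKM), and of 4 tested eosinophil, basophil and mast cell markers 3 rose, 1 of them with both means at 1 FPKM or more, and 1 fell (16.4 to 18.4 against 21.6 to 27.0 FPKM). Dendritic cell markers had 1 of 2 lower (404 to 410 against 306 to 322 FPKM), and 0 of 3 tested erythroid, megakaryocyte, stromal and endothelial markers passed, none at an unadjusted p under 0.05 either. Their part in the results below was not tested. In bulk samples, a different share of cells of a type and a different level of RNA in each cell cannot be told apart.

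Of the 10 genes, 7 rose in the libraries labelled Sema6D-/- and 0 fell, where 4.8% of all tested genes rose and 4.91% fell. The 10 were chosen with earlier results of these data known, so this count is not independent support. Asns, which makes asparagine, Chac1, which breaks down glutathione, and the transcription factor gene Atf5 had the 3 largest differences. Asns was ahead of Chac1 on the log2(FPKM + 1) scale (1.68 against 1.37) and behind it with a pseudocount of 0.1 FPKM (1.74 against 2.06). Atf4, Ddit3, Trib3 and Ppp1r15a rose less. Sesn2 and both kinase genes did not pass. The median difference of the 10 was 0.50, beside 0.003 for all genes tested. In 9 of the 10, both Sema6D-/- libraries lay above both wild type libraries, as in 28.8% of all tested genes. Chac1 had a wild type mean under the minimum of 1 FPKM and was tested only through its level under Sema6D-/-. Of the 9 genes with both means above it, 6 rose.

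**Figure D1:**
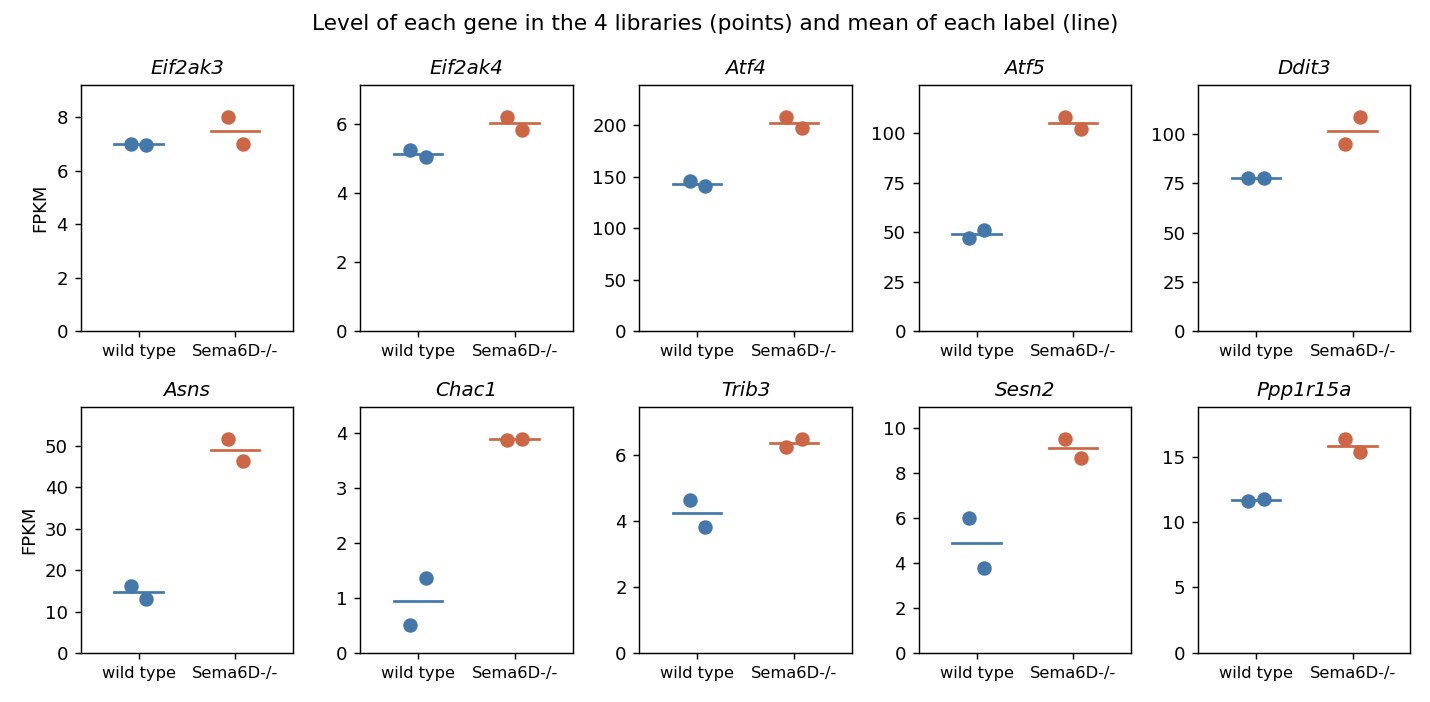
FPKM (vertical axes, each from 0) of the 10 genes in the 2 libraries labelled wild type and the 2 labelled Sema6D-/-; points are libraries and lines the mean of a label. Only Eif2ak3 has a Sema6D-/- library (6.98 FPKM) inside the wild type values (6.97 and 7.01).

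The count moved with the filter and with each library. Without a filter, where 23259 genes were tested, 0 of the 10 passed, with adjusted p from 0.0708 (Atf5) to 0.946 (Eif2ak3). At an unadjusted p under 0.05, 8 of the 10 were higher and 0 lower, both without a filter and with it. Over all genes, 1300 of 10115 were higher and 1235 lower with the filter, and 1466 of 23259 and 1443 without it. Leaving out genes listed at 0 in all 4 libraries, an alternative chosen after seeing the data, gave 3: Asns, Atf4 and Atf5. With 1 library left out, 5 passed without wild type replicate 1, 4 without wild type replicate 2, 2 without Sema6D-/- replicate 1 and 3 without Sema6D-/- replicate 2. Asns and Atf5 passed in each of these 4 fits.

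The kinase genes did not pass. Eif2ak3 was at 7.01 and 6.97 FPKM under wild type and 8.002 and 6.98 under Sema6D-/-. The labels overlap, and the difference of 0.08 ± 0.09 (SE) was within the spread of the Sema6D-/- libraries (adjusted p = 0.625). Without Sema6D-/- replicate 1 the difference was -0.0023. Eif2ak4 was at 5.24 and 5.04 FPKM under wild type and 6.20 and 5.84 under Sema6D-/-. Its labels do not overlap, but the difference of 0.19 ± 0.09 (SE) did not pass (adjusted p = 0.24). Eif2ak3 shares 485 exon bases with the GENCODE gene Gm43292 on the other strand, so reads from Gm43292 there could have counted for Eif2ak3 if strand was not used. No other member had a stretch of at least 100 bases at 95% identity in a transcript of another gene.

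The other kinases of eIF2α are those for haem shortage, Eif2ak1, and for double-stranded RNA, Eif2ak2 or PKR, itself an interferon-induced gene. Eif2ak2 was at 24.4 and 28.9 FPKM under wild type and 18.99 and 19.6 under Sema6D-/-. The difference was -0.44 ± 0.09 (SE, adjusted p = 0.0415), the only gene of a list of 11 kinases, GCN2 partners and phosphatase subunits to pass. Of all tested genes, 4.91% fell. Eif2ak1 was at 39.9 and 40.9 against 36.4 and 37.9 FPKM (adjusted p = 0.237). The GCN2 partners Gcn1l1 and Impact differed by 0.00 and 0.06 (adjusted p = 0.985 and 0.643). Eif2ak2 did not pass without wild type replicate 2, without either Sema6D-/- library, with eBayes without trend or without a filter. Of 11 subunits and partners of eIF2 and its exchange factor eIF2B, 1 rose, beside 4.8% of all tested genes. It was Eif2s2 (eIF2β), from 17.3 and 17.7 to 23.0 and 23.0 FPKM (adjusted p = 0.018). Eif2s1, the eIF2α gene, was at 30.5 and 34.0 against 28.9 and 29.6 FPKM and did not pass (adjusted p = 0.298). Eif2s2 did not pass in any fit without 1 library or without a filter (adjusted p = 0.0535).

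The transcription factor genes all rose. Atf4 was at 146 and 141 FPKM under wild type and 208 and 197 under Sema6D-/-. It was the most abundant of the 10 genes in every library, and the gap between the labels (51.3 FPKM) was wider than the spread within either. The difference was 0.50 ± 0.05 (SE), a ratio of means of 1.41 (adjusted p = 0.00599). Without Sema6D-/- replicate 1 it did not pass (adjusted p = 0.0621). About 3136 to 4065 fragments stand behind each value.

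Atf5, a relative of Atf4 that also responds to ER and mitochondrial stress, was at 47.4 and 51.0 FPKM under wild type and 108 and 102 under Sema6D-/-. The lower Sema6D-/- library was 51.2 FPKM above the higher wild type library. The difference was 1.08 ± 0.06 (SE), a ratio of means of 2.14 (adjusted p = 0.0014), and 0.919% of tested genes had a larger one. Atf5 shares 82 exon bases with Il4i1 and Nup62 on the other strand. Il4i1, an IL-4-induced amino acid oxidase gene, fell (113 and 114 against 65.8 and 76.0 FPKM, adjusted p = 0.00876), while Nup62 rose (48.6 and 43.6 against 56.9 and 56.7 FPKM, adjusted p = 0.0494). The strand setting of the quantification is not given in the sources used here.

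Ddit3, which encodes the pro-apoptotic factor CHOP, was at 77.8 and 77.7 FPKM under wild type and 94.9 and 109 under Sema6D-/-. The Sema6D-/- libraries were higher but differed from each other by more than the wild type pair. The difference was 0.38 ± 0.07 (SE), a ratio of means of 1.31 (adjusted p = 0.0342). It did not pass in any fit without 1 library (adjusted p = 0.0558 to 0.111), nor with the replicate number as a block (0.05002) or with eBayes without trend (0.087). Ddit3 and the methionyl-tRNA synthetase gene Mars, which also rose (22.1 and 21.3 against 31.1 and 27.6 FPKM) but in no fit without 1 library, overlap by 68 bases at their 3′ ends on opposite strands.

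**Figure D2:**
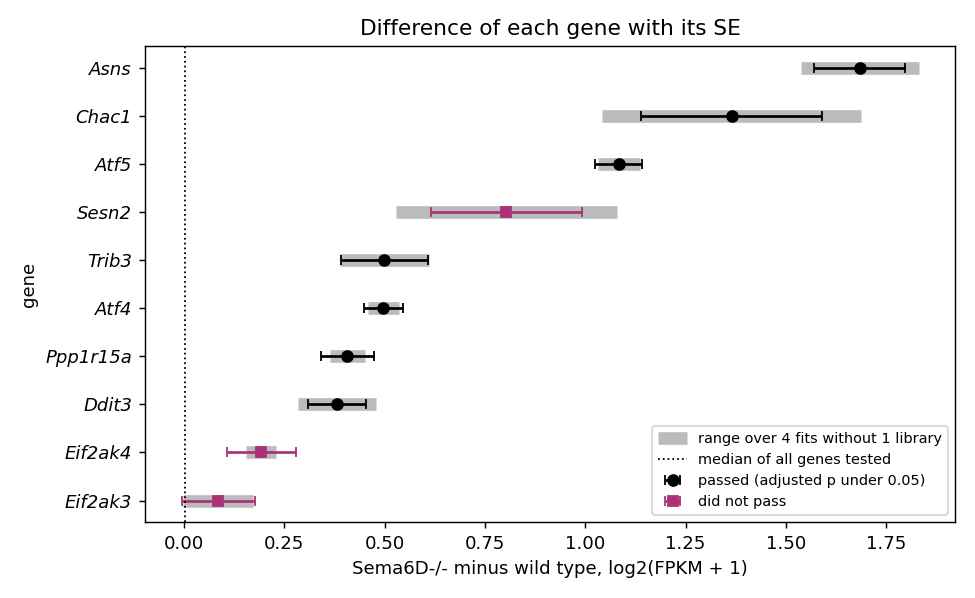
Sema6D-/- minus wild type in log2(FPKM + 1) for each of the 10 genes; whiskers are ± SE, grey bars the range over the 4 fits that leave out 1 library, and the dotted line the median of all tested genes. Asns (1.68), Chac1 (1.37) and Atf5 (1.08) lie above 1, and the bar of Eif2ak3 alone reaches below 0.

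Among the effectors of amino acid and glutathione metabolism, Asns was at 16.2 and 13.04 FPKM under wild type and 51.8 and 46.3 under Sema6D-/-. The lower Sema6D-/- library was 30.1 FPKM above the higher wild type library. The difference was 1.68 ± 0.11 (SE), a ratio of means of 3.35 (adjusted p = 0.00213), and 0.504% of tested genes had a larger one. It passed in each fit without 1 library (adjusted p = 0.00278 to 0.0372). The estimated fragments were 405 and 337 against 1172 and 1086.

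Chac1, whose product cleaves glutathione, was at 0.517 and 1.37 FPKM under wild type and 3.88 and 3.90 under Sema6D-/-. The Sema6D-/- libraries were alike and above both others, while the wild type values differed 2.65-fold from each other. The difference was 1.37 ± 0.23 (SE), a ratio of means of 4.12 (adjusted p = 0.0241). It rests on about 8 and 21 fragments against 53 and 55, the fewest of the 10 genes. It did not pass without Sema6D-/- replicate 1 or replicate 2 (adjusted p = 0.158 and 0.139), and the difference was 2.06 with a pseudocount of 0.1 FPKM and 0.58 with 5 FPKM.

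Trib3, a pseudokinase gene that ATF4 and CHOP induce and that in turn restrains ATF4, was at 4.64 and 3.84 FPKM under wild type and 6.27 and 6.51 under Sema6D-/-. The labels did not overlap, and the difference of 0.50 ± 0.11 (SE) passed by a small margin (adjusted p = 0.0483). It did not pass in any fit without 1 library (adjusted p = 0.0564 to 0.226), nor with a minimum of 5 FPKM (0.0609), with eBayes without trend (0.0634) or with the replicate block (0.0823). Sesn2, a sestrin gene whose product restrains mTORC1 when leucine is short, was at 6.00 and 3.78 FPKM under wild type and 9.53 and 8.67 under Sema6D-/-. Its labels did not overlap either, and its difference of 0.80 ± 0.19 (SE) was larger than that of Trib3 but did not pass (adjusted p = 0.0598). The wild type libraries lay 1.59-fold apart. Sesn2 passed without wild type replicate 1 (adjusted p = 0.0184), with robust eBayes (0.0463) and with the replicate block (0.043).

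Ppp1r15a, or GADD34, directs a phosphatase to eIF2α and so ends the response. It was at 11.6 and 11.8 FPKM under wild type and 16.4 and 15.3 under Sema6D-/-. The higher wild type library was 0.927% above the other, and the labels did not overlap. The difference was 0.41 ± 0.07 (SE), a ratio of means of 1.35 (adjusted p = 0.0235). It did not pass in any fit without 1 library (adjusted p = 0.077 to 0.177) or with the replicate block (0.051). Its constitutive relative Ppp1r15b was at 34.4 and 34.2 against 36.0 and 34.3 FPKM (adjusted p = 0.741).

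The genes did not keep 1 ratio to each other. FPKM are per length, so levels can be set side by side within a library. Asns was at 11.1% and 9.26% of the Atf4 level under wild type and at 24.9% and 23.5% under Sema6D-/-. Atf5 was at 32.4% and 36.2% of Atf4 against 52.0% and 51.8%. Both ratios were higher in each Sema6D-/- library than in each wild type library. Ddit3 was at 53.3% and 55.2% of Atf4 against 45.6% and 55.1%, with overlapping labels. Trib3, at 5.96% and 4.94% of Ddit3 against 6.60% and 5.99%, was slightly higher in both Sema6D-/- libraries, and Ppp1r15a, at 15.0% and 15.1% of Ddit3 against 17.2% and 14.1%, overlapped. These ratios are a description and were not tested.

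**Figure D3:**
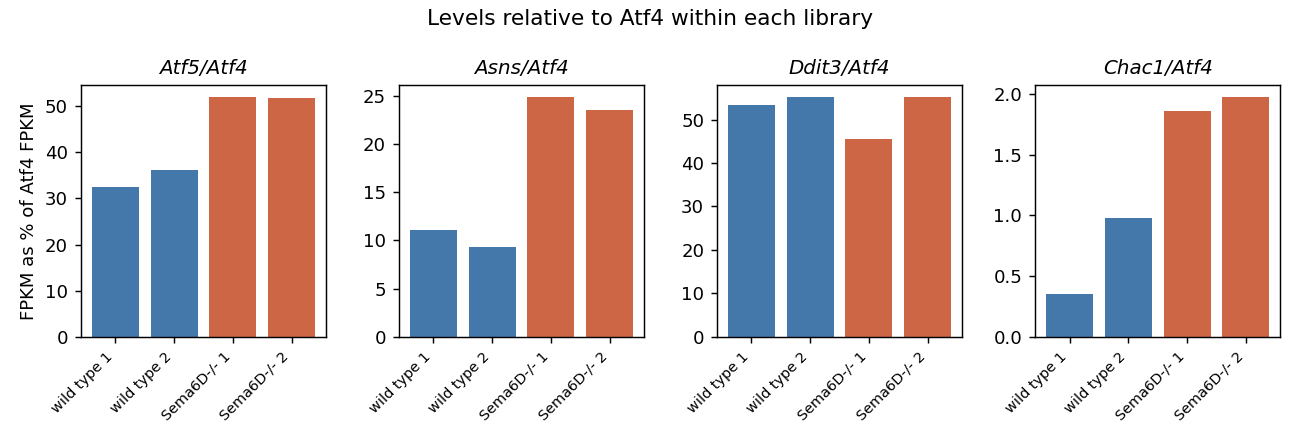
FPKM of Atf5, Asns, Ddit3 and Chac1 as a percent of the Atf4 FPKM in each of the 4 libraries (bars from 0; blue for wild type, orange for Sema6D-/-). The Asns bars are at 11.1% and 9.26% under wild type and 24.9% and 23.5% under Sema6D-/-, while the Ddit3 bars overlap.

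Other genes of the pathway were taken from lists chosen with earlier results of these data known, so their counts are not independent support. Over all tested genes, 4.8% rose and 4.91% fell. Targets of ATF4 in amino acid synthesis and transport had 8 of 16 tested genes higher and 1 lower, with a median difference of 0.55. Phgdh, the first enzyme of serine synthesis, was at 0.605 and 0.769 against 6.22 and 4.34 FPKM (adjusted p = 0.00545), and Aldh18a1 of proline synthesis at 3.31 and 3.68 against 9.53 and 8.35 (adjusted p = 0.00483). The cationic amino acid transporter gene Slc7a1 rose from 5.11 and 4.82 to 10.8 and 10.2 FPKM (adjusted p = 0.00417). Psat1 of serine synthesis and Mthfd2 of mitochondrial folate metabolism rose with ratios of means of 1.87 and 2.01. Phgdh had a wild type mean under 1 FPKM and was tested only through its level under Sema6D-/-, and 7 of the higher genes had both means at 1 FPKM or more. Slc7a11, which imports cystine, fell from 7.23 and 7.38 to 4.09 and 4.29 FPKM (adjusted p = 0.011). The glutamine transporter gene Slc1a5 was also lower, at 45.7 and 42.4 against 34.4 and 37.6 FPKM, and did not pass (adjusted p = 0.0646, and 0.0445 with robust eBayes to 0.356 without a filter over the alternatives). The fall of Slc7a11 ended without wild type replicate 2, without either Sema6D-/- library or without a filter (adjusted p = 0.0916). Without a filter, 2 genes of this list were higher and 0 lower. Higher genes numbered 3 and 5 without Sema6D-/- replicate 1 or 2.

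The cytosolic tRNA synthetase genes listed as ATF4 targets, a part of that family, moved in a narrow range. Of 13 tested, 10 rose and 0 fell, with a median difference of 0.35. In 12, both Sema6D-/- libraries lay above both wild type libraries, as in 28.8% of all tested genes. Nars, for asparagine, rose from 101 and 92.2 to 148 and 142 FPKM (adjusted p = 0.00739). Gars, Cars and Aars rose with ratios of means of 1.34 to 1.46, while Wars, Lars and Vars did not pass. None of these calls held without Sema6D-/- replicate 1 or replicate 2, which leaves 1 library under that label. Without a filter 2 of the 13 passed, and with eBayes without trend 5 did. The count was 5 without wild type replicate 1 and 4 without wild type replicate 2.

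Among 15 other tested effectors of ATF4 and CHOP, 7 rose and 1 fell, with a median of 0.34. Dropping Sema6D-/- replicate 1 or 2 left 3 or 4 higher, dropping the filter left 2, and eBayes with no trend left 4. Gdf15, a stress-induced hormone gene, rose from 5.74 and 4.602 to 16.2 and 15.4 FPKM (adjusted p = 0.00303), Nupr1, a stress-induced chromatin protein gene, from 6.02 and 6.82 to 15.3 and 15.2 (adjusted p = 0.00276), and Vegfa, an angiogenic growth factor gene, from 14.3 and 14.4 to 28.2 and 29.7 (adjusted p = 0.00174). Nlrp1a, an inflammasome sensor gene, was at 0.262 and 0.214 against 3.97 and 4.36 FPKM (adjusted p = 0.00184); its wild type mean is under 1 FPKM, so it was tested only through its level under Sema6D-/-, and 6 of the 7 had both means at 1 FPKM or more. Tnfrsf10b, a death receptor gene that CHOP can induce, fell from 3.42 and 2.12 to 0.629 and 0.571 FPKM (adjusted p = 0.0234), and was tested only through its level under wild type. Its fall did not pass without either Sema6D-/- library or without a filter (adjusted p = 0.272). Nor did it pass with only genes at 0 in all libraries left out (0.0661). It was not tested with a minimum of 5 FPKM, which it does not reach. Other CHOP targets, Bbc3, Bcl2l11 and Ero1l, differed by -0.02, 0.06 and 0.01 and did not pass. Pmaip1 and Ddit4 of the same list differed by 0.46 and -0.31 and did not pass either (adjusted p = 0.302 and 0.261). Fgf21 and Adm2 were listed at 0 in every library.

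Genes of the other arms of the unfolded protein response were tested beside these. Of 26 tested genes of the ATF6 and IRE1 arms and ER chaperones, 0 passed with limma. Their median difference was 0.11, and 17 had Sema6D-/- libraries above both wild type libraries (28.8% of all tested genes did). At an unadjusted p under 0.05, 5 of the 26 were higher and 0 lower, beside 1300 and 1235 of all 10115 genes tested. With a pseudocount of 0.1 FPKM, a minimum of 5 FPKM or robust eBayes, 1 passed. Hspa5, the chaperone BiP, was at 331 and 333 FPKM under wild type and 356 and 371 under Sema6D-/- (difference 0.13, adjusted p = 0.141). Xbp1 was at 107 and 106 against 108 and 114 FPKM (adjusted p = 0.465), and Atf6, at 19.5 and 17.9 against 23.9 and 22.8, had the smallest p of the list (adjusted p = 0.0515). Of 10 mitochondrial stress genes, 1 rose, beside 4.8% of all tested genes. It was the chaperone gene Hspa9, from 115 and 115 to 140 and 140 FPKM (adjusted p = 0.0162). The others included 0610009O20Rik, the older symbol of Dele1, which relays mitochondrial stress to eIF2α kinases, at 9.43 and 8.95 against 10.6 and 10.003 FPKM (adjusted p = 0.294). Hspa9 did not pass in any fit without 1 library or with eBayes without trend.

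**Figure D4:**
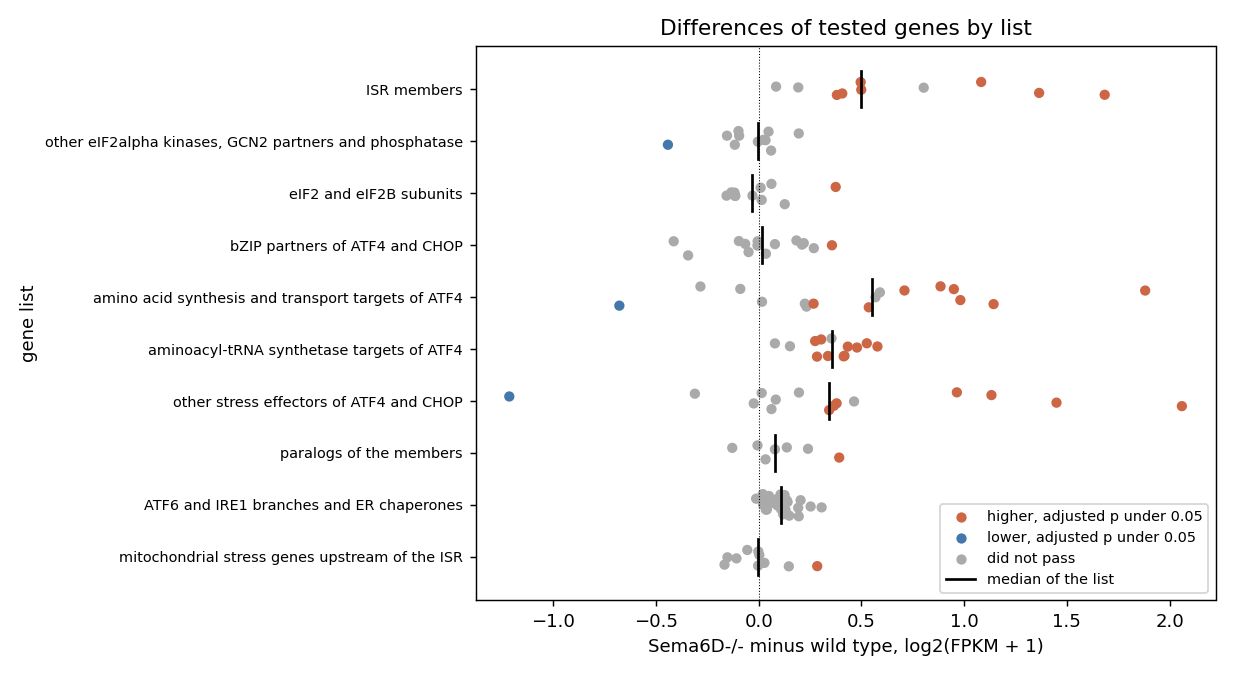
Sema6D-/- minus wild type in log2(FPKM + 1) for every tested gene of the 10 stress response genes (top, ISR members) and of 9 lists of related genes; points are genes, coloured by whether they passed, and black lines are list medians. Medians lie at 0.34 to 0.55 for the top row and the 3 rows of ATF4 targets and at -0.03 to 0.11 for the other 6.

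Partners of ATF4 and CHOP among basic leucine zipper factors were mostly not past the threshold. Of 14 tested, 1 rose and 0 fell, where 4.8% of all tested genes rose and 4.91% fell. At an unadjusted p under 0.05, 4 were higher and 1 lower, beside 1300 and 1235 of all 10115 genes tested. Fos rose (36.0 and 39.1 against 46.9 and 49.8 FPKM, adjusted p = 0.0295). It did not pass without wild type replicate 1, without either Sema6D-/- library or with eBayes without trend. Nor did it pass without a filter (adjusted p = 0.251) or with only genes at 0 in all libraries left out (0.0719). Cebpb was at 64.9 and 79.3 against 53.6 and 59.1 FPKM (adjusted p = 0.118) and Cebpg at 18.2 and 20.8 against 24.1 and 23.2 (adjusted p = 0.106). Atf3, a stress factor induced with CHOP, was high in every library, at 661 and 688 against 726 and 699 FPKM, and did not pass (adjusted p = 0.377). Of 7 tested relatives of the 10 genes, 1 rose, beside 4.8% of all tested genes. It was Sesn1, from 25.0 and 27.3 to 35.4 and 33.9 FPKM (adjusted p = 0.0235). The call was lost with the replicate block, with eBayes without trend and without a filter (adjusted p = 0.224). With only genes at 0 in all libraries left out, the call was lost too (0.0602). It was also lost when wild type replicate 1 or 1 of the Sema6D-/- libraries was left out. Chac2 was at 5.75 and 3.95 against 4.12 and 4.45 FPKM (adjusted p = 0.682), so the constitutive relative of Chac1 did not pass.

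The search letters for the ATF4 site were also set beside the test over all genes. Of 7349 tested genes with a window, 4.86% rose and 4.67% fell, and of the 180 among them with a TGATGNAA match, 20, or 11.1%, rose and 12, or 6.67%, fell. Of 237 with the CRE letters, 5, or 2.11%, rose and 10 fell, and of 12 with the ER stress element 0 passed (3 higher and 0 lower at an unadjusted p under 0.05). The median difference of the 180 was -0.01. Of the 180, 29 were higher and 27 lower at an unadjusted p under 0.05, beside 1300 and 1235 of all 10115 genes tested. These are counts with no test. In the lists, matches were found before Aars, Gars and Tars among the 7 synthetase genes with a window. Others lay before Got1, Pycr1 and Slc7a11 among 17 genes of amino acid supply, and before Fgf21, Nupr1 and Vldlr among 15 other effectors. Single genes of other lists, Eif2s3x, Atf3, Jdp2 and Herpud1, also had one, and none of them passed. Of the genes before these, Aars, Gars, Tars and Nupr1 rose, Slc7a11 fell and Got1 did not pass. Pycr1, Fgf21 and Vldlr averaged under 1 FPKM and were not tested.

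The genes whose profile over the 4 libraries was nearest to a member were also listed, for the 4 members that span at least 1 in log2(FPKM + 1). The measure was the Euclidean distance between profiles centred on their own mean. Nearest to Asns were the neutrophil genes S100a9 (distance 0.13; 98.8 and 89.6 against 343 and 289 FPKM), Lcn2 (0.18) and Ngp (0.21). Nearest to Atf5 were Ramp1 (0.04), Usp6nl (0.07) and Nupr1 (0.08), and to Chac1 the IL-4-induced gene Chi3l3 (0.20), Jsrp1 (0.28) and Sik1 (0.30). For Sesn2 they were Gm6222 (0.15), Gpx4 (0.16) and Gm5150 (0.16). With 4 libraries, genes with a like difference between the labels come out near each other by this measure.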

How the data were processed

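Each library came as 1 list of gene symbols with values. The submitters' processing notes name Cuffnorm 2.2.1, TopHat2 2.0.13, Bowtie2 2.2.3, SAMtools 0.1.19 and mm10, without roles. The file headers name no unit, and the deposited values were taken as FPKM because Cuffnorm gives FPKM normalized between libraries and the low values step with gene length. Libraries were strand-specific, per the labels' protocols. Which annotation and strand setting Cuffnorm had: not given in the sources used here. Of 23284 symbols 25 had no value.

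Tests used limma 3.58.1 in R 4.3.3 (eBayes with trend, two-sided) on log2(FPKM + 1) for 10115 genes, and not a count model, with Benjamini-Hochberg adjustment. On simulated data for this comparison of 10115 genes, 90% of 50 genes changed by 0.5 in log2 were recovered. The share was 98% at 1 and 100% at 2 and 3, with 16 false calls among 210. The changed genes were drawn only from genes above about 5 FPKM, with normally distributed noise. The recovery therefore does not cover low genes such as Chac1. Depth came from the lowest FPKM steps of single-transcript genes, and fragments from GENCODE M21 exon lengths on GRCm38. A share of fragments can differ from these estimates, since the authors' annotation is not given.

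The members, lists and rules were chosen with earlier results of these data known. Named were the 10 members, up to 4 genes in each pathway list by smallest p, the 2 most abundant markers of each list, Sema6d and nearest profiles; others, such as Phgdh, Slc7a11, Slc1a5, Tnfrsf10b, Xbp1 and Chac2, were picked after their values were seen. Of 217 list entries 216 were found, 2 under another symbol. Alternatives were other pseudocounts, filters, scalings, variance models, a replicate block and each library left out.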

Additional observations from a re-analysis of the deposited data

How the results depend on the processing

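The 7 members that rose numbered 0 without a filter, 3 when only genes listed at 0 in all libraries were dropped (chosen after seeing the data), and 2 to 5 with 1 library left out; 0 fell in every setting. All genes called higher (486) and lower (497) numbered 115 and 99 without a filter, 256 and 248 in the added filter, 261 and 327 with eBayes without trend, and 72 to 276 and 87 to 290 with 1 library left out. Pathway genes outside the members (29 higher, 3 lower) numbered 7 and 0 without a filter, 16 higher with eBayes without trend, 1 lower in the added filter, and 6 to 18 higher and 0 to 4 lower with 1 library left out. Eif2ak3 alone changed sign, to -0.0023 without Sema6D-/- replicate 1 (range -0.0023 to 0.17 with 1 library left out). Genes at 0 change the fitted trend and the number of tests, and fewer libraries weaken the test; how much of each lost call comes from either was not tested. With the replicate number as a replicate block, 5 members rose, and 300 genes in all were higher and 337 lower. Same-numbered libraries did not deviate together (r = -0.02 over genes). With 2 libraries for each label this is a weak check and cannot show whether the numbers pair them. A single fragment on 1 kb is worth 0.106 to 0.121 FPKM, which limits Chac1 most.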
